A study of Mus musculus with 18 samples.

Results

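The vesicular acetylcholine transporter gene Slc18a3, the choline transporter gene Slc5a7, the motor neuron transcription factor genes Isl2 and Lhx3, the neurotrophic receptor gene Gfra1 and the peptide gene Calcb are the 6 genes described here. They were chosen by name, as genes of cholinergic transmission and of motor neuron identity, with earlier results of these data known. Every probe set annotated with 1 of these symbols alone was taken. The 12393 genes with such a probe set include all 6, and these have 8 of the 22626 probe sets that are not array controls: 2 each for Lhx3 and Gfra1 and 1 for each other gene. Both Gfra1 probe sets carry the same sequence accession in the annotation, so they are not separate measurements of independent transcripts.

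The series measured total RNA from the oculomotor nucleus, whose motor neurons move the eyes and are spared in amyotrophic lateral sclerosis (ALS), and from the cervical spinal cord, whose motor neurons degenerate. Its title sets protective against adaptive expression in the spared region. Each region came from mutant mice of 10 weeks, mutant mice of 6 weeks and control mice of 10 weeks, which makes 6 groups of 3 arrays. All 18 samples, controls included, carry the description of an ALS model, and the labels name no mutation, strain, sex or pooling of animals. No controls of 6 weeks were measured, so age was compared in mutants alone. Whether arrays come from different animals is not in the labels, and p-values therefore measure only the spread between these samples.

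Replicate 1 of the control spinal cord stood apart and was not used: its correlation with the other arrays across probe sets lay between 0.0104 and 0.0143, so that 2 arrays remained in its group. Between the 17 arrays used, that correlation ran from 0.957 to 0.985. Values are Affymetrix signals, scaled on each array to a trimmed mean near 500.1, and array medians lay between 207.1 and 226.05. Signals of different probe sets cannot be set against each other, because probes differ in brightness. Fold changes are on the scale of log2(signal + 25), with their standard error (SE). A probe set was called at an adjusted p under 0.05 in limma with Benjamini-Hochberg adjustment over 13575 tested probe sets. The number of arrays limits the precision.

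Motor neurons use acetylcholine at their synapses. The transporter made from Slc5a7 takes choline back up into the terminal, choline acetyltransferase (Chat) turns it into acetylcholine, and the transporter made from Slc18a3 loads the product into synaptic vesicles. LIM homeodomain factors such as Isl2 and Lhx3 set motor neuron identity during development. Gfra1 binds the survival factor GDNF and signals with the kinase Ret, and Calcb encodes a calcitonin gene-related peptide (CGRP) that motor and sensory neurons make. Slc18a3 lies within the Chat gene in the RefSeq gene table. Chat itself had no probe set under its own symbol alone in the annotation used, so it could not be analysed here.

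Promoter windows of 5 of the 6 genes were matched in RefSeq (GRCm38.p6), each running from 250 bases before the annotated start to 50 after it. Those of both transporter genes are shown, because these genes separated the regions together and serve 1 transmitter. Capitals mark the letters TAAT, the core that many homeodomain factors bind, and TGACG, which belongs to the cyclic AMP response element, on either strand (ATTA and CGTCA on the other). The windows are Slc18a3 at chr14:32464801-32465100 and Slc5a7 at chr17:54298985-54299284, both on the minus strand and written 5′ to 3′.
Slc18a3: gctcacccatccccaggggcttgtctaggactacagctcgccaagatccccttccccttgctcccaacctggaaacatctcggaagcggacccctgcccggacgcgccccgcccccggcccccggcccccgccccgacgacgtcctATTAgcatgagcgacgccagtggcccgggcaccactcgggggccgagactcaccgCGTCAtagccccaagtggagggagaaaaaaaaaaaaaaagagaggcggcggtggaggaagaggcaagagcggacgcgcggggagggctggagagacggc
Slc5a7: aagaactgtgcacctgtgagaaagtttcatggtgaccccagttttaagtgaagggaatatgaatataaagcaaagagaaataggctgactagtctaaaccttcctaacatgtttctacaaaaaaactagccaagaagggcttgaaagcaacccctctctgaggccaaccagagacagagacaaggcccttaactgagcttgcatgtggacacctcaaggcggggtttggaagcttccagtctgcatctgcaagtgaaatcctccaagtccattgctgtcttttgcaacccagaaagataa

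The Slc18a3 window held 1 match to TAAT and 1 to TGACG, which did not overlap, and its GC content was 67.0%. In the Slc5a7 window these letters had no match, and its GC content was 44.7%. Of all 32851 promoter windows of this length, 58.0% held TAAT and 20.8% held TGACG, so both are common.

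Markers separated the 2 tissues. The summed signal of 10 Hox genes, which mark spinal position, was 400.1 to 670.3 on the oculomotor arrays and 6757 to 8105 on the spinal cord arrays. That of 7 dopamine neuron genes was 6287 to 8486 on the oculomotor arrays and 917 to 1264 on the spinal cord arrays. The oculomotor label had less direct support from its own markers. Phox2a, on which oculomotor motor neurons depend, had signals of 33.4 to 69.7 on the oculomotor arrays and 38.5 to 84.6 on the spinal cord arrays, and both probe sets of Isl1, another factor of these neurons, stayed at or below 113.5 on the oculomotor arrays and 117.6 on the spinal cord arrays. These lie below the limit of the low-signal filter, a signal of 141. Of the 6 oculomotor marker genes on the array, only Sema3c passed that filter. The sum of 10 genes of neurons in general was 37554 to 40406 on the oculomotor arrays and 29647 to 35597 on the spinal cord arrays. In the mean of the 3 conditions 4 of these genes were called higher in the oculomotor nucleus and 1, the neuronal splicing factor gene Rbfox3 (-0.20 ± 0.08), was called lower, with a median of 0.11.

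**Figure D1:**
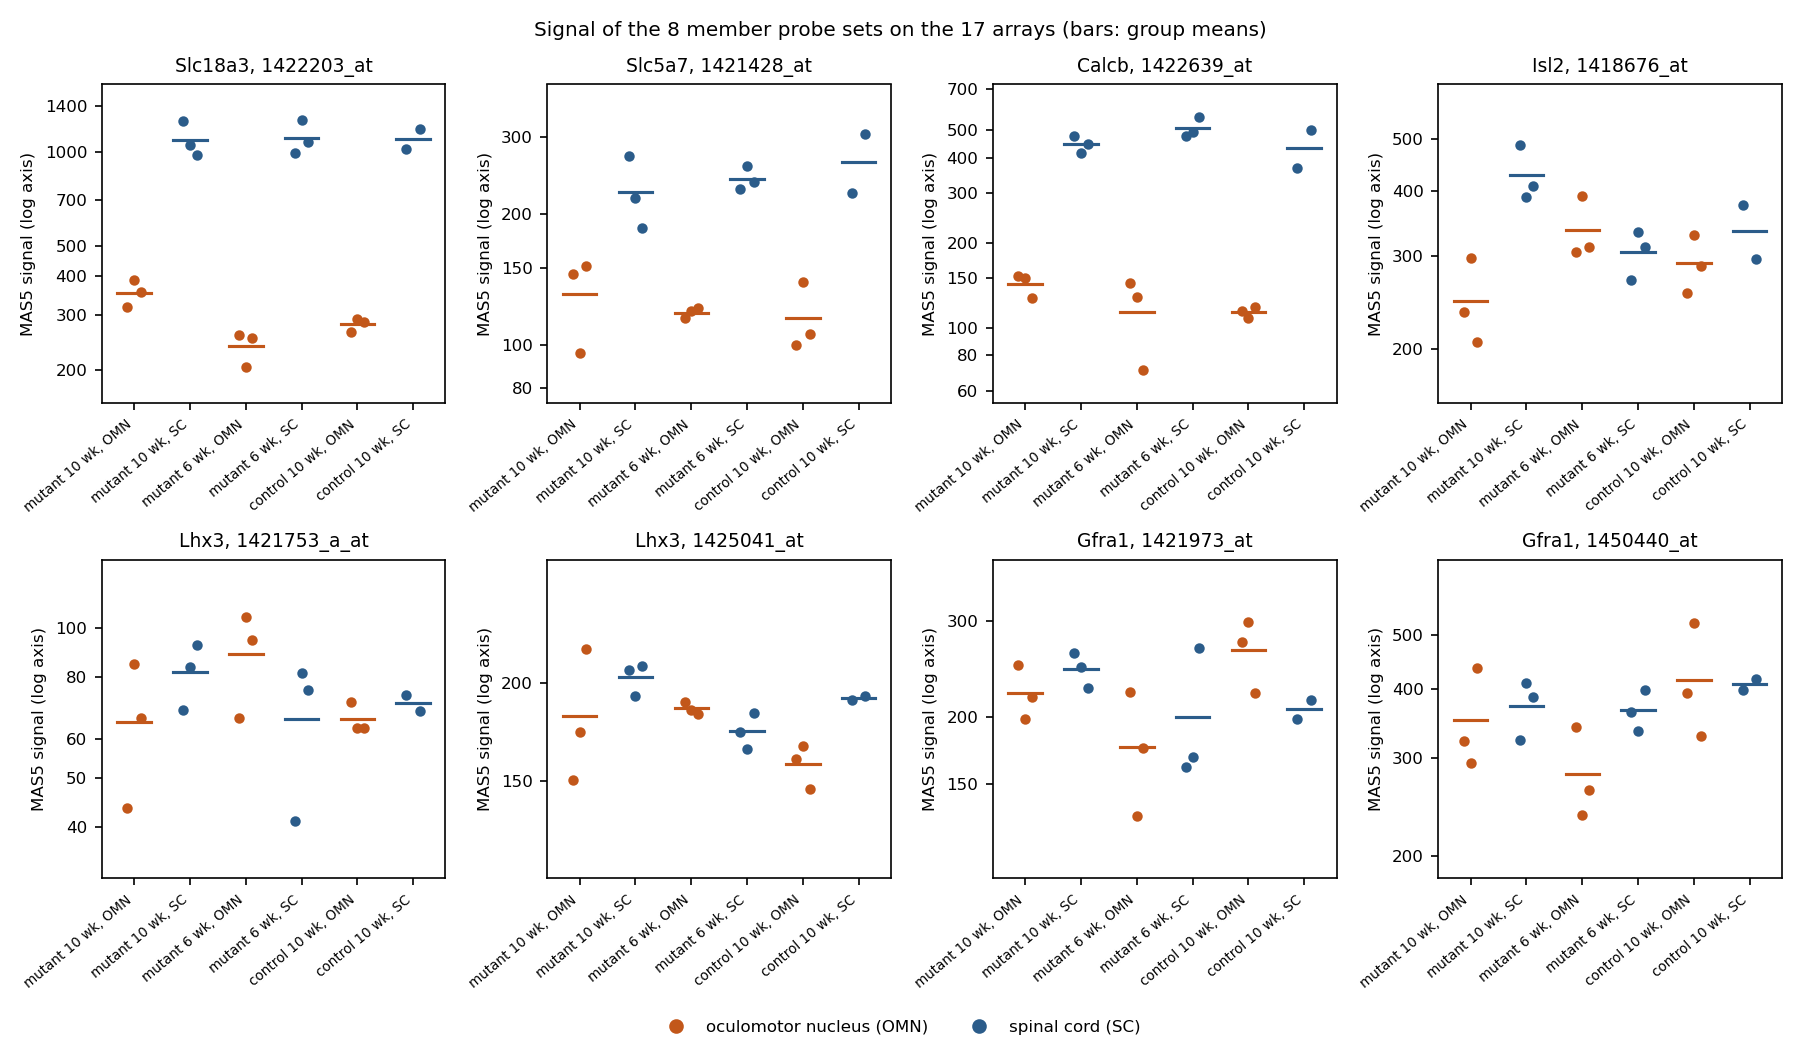
Signal of each of the 8 probe sets (vertical axis, log scale, arbitrary units) on the 17 arrays, grouped by condition with the oculomotor nucleus (OMN) left of spinal cord (SC). Points are arrays and bars are group means. Slc18a3, Slc5a7 and Calcb lay lower on every oculomotor array than on any spinal cord array, while the other 3 genes overlapped between regions. The share of all probe sets without such overlap is not given here. In the mean of the 3 conditions, 17.7% of all tested probe sets were called lower in the oculomotor nucleus and 20% higher.

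Slc18a3, Slc5a7 and Calcb were lower in the oculomotor nucleus than in spinal cord in all 3 conditions, and Isl2 was lower in mutants of 10 weeks. Lhx3 and Gfra1 were not called in any regional comparison. Of the 8 probe sets, 7 passed the filter, and 1 of Lhx3 did not. Called lower were 4 in mutants of 10 weeks, 3 in mutants of 6 weeks and 3 in controls of 10 weeks. Among all tested probe sets, 9.99%, 11.7% and 6.94% were called lower in the same comparisons. In the mean of the 3 conditions 4 were called lower, against 17.7% of all tested probe sets. None of the 7 tested was called higher in these comparisons. Slc5a7 and Calcb passed the filter through their spinal cord signals, since most of their oculomotor signals lay under the limit; with no filter and all 22626 probe sets tested, the counts were the same.

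A stricter rule that also asks for a change of at least 2-fold called Slc18a3 and Calcb lower in mutants of 10 weeks, in mutants of 6 weeks and in the mean, against 1.12%, 1.52% and 1.06% of all tested probe sets. In controls it called Slc5a7 as well, against 1.09%. By a rule of the study's own kind, with all pairs of arrays lower and a mean signal change over 2-fold, the count was 2 in mutants of 10 weeks, 3 in mutants of 6 weeks and 3 in controls, against 1.38%, 1.74% and 1.32% of all tested probe sets.

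Slc18a3, the vesicular transporter of acetylcholine, had signals of 317.7, 388.9 and 354.4 in the oculomotor nucleus of mutants of 10 weeks, against 1252.2, 1050.8 and 977.3 in their spinal cord. In mutants of 6 weeks they were 258.5, 204.1 and 253.5 in the oculomotor nucleus, against 990, 1263.1 and 1071 in spinal cord. In controls of 10 weeks they were 264.3, 291.6 and 285.1 in the oculomotor nucleus, against 1021.8 and 1182.3 in spinal cord. Every oculomotor array was lower than every spinal cord array, by a wide gap. The log2 fold change was -1.56 ± 0.13 (adjusted p = 6.48e-08) in mutants of 10 weeks, -2.10 ± 0.13 (9.07e-10) in mutants of 6 weeks and -1.88 ± 0.14 (3.14e-08) in controls, by limma. Their mean, -1.85 ± 0.08, put the oculomotor level at 0.278 of the spinal cord level, and ranked 39 from the lowest among the 13575 tested probe sets.

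Slc5a7, the choline transporter, was dim in both regions. Signals were 145.5, 96.1 and 151.9 in the oculomotor nucleus of mutants of 10 weeks, against 271.8, 217.2 and 185.8 in their spinal cord. Mutants of 6 weeks had 115.4, 119.6 and 121.6 in the oculomotor nucleus and 227.5, 257 and 236.3 in spinal cord. Controls had 100.1, 139.5 and 106.4 in the oculomotor nucleus and 222.7 and 304.4 in spinal cord. The regions did not overlap, but the gap was narrow: the highest oculomotor signal was 151.9 and the lowest spinal cord signal 185.8. Log2 fold changes were -0.68 ± 0.18 (limma adjusted p = 0.0100), -0.88 ± 0.18 (0.00127) and -1.04 ± 0.20 (0.00133) in the same order of conditions, with a mean of -0.87 ± 0.11. In mutants of 10 weeks the call was lost without oculomotor replicate 2 (-0.51, adjusted p = 0.0626) or without spinal cord replicate 1 (-0.55, adjusted p = 0.0613). The first of these arrays also carried high pituitary hormone signals, with 2209 for prolactin (Prl).

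Calcb, the CGRP gene, followed Slc18a3 most closely in size. Its signals were 153.2, 149.8 and 127.4 in the oculomotor nucleus of mutants of 10 weeks, against 476.2, 414.9 and 449.2 in their spinal cord. In mutants of 6 weeks they were 143.7, 128.5 and 70.8 in the oculomotor nucleus and 476.3, 492.4 and 559.2 in spinal cord, and in controls 115.1, 108.4 and 118.8 in the oculomotor nucleus and 369.2 and 500.3 in spinal cord. Again no oculomotor array reached the lowest spinal cord array. The log2 fold change was -1.49 ± 0.17 (limma adjusted p = 6.45e-06) in mutants of 10 weeks, -1.98 ± 0.17 (1.93e-07) in mutants of 6 weeks and -1.71 ± 0.19 (6.54e-06) in controls. Over the conditions it averaged -1.73 ± 0.10, a level of 0.302 of that in spinal cord.

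In these bulk samples fewer motor neurons per sample and less RNA per motor neuron cannot be told apart. Calcb is also a gene of sensory neurons and spinal cord pieces can hold nerve roots, so markers of both were set beside it. The summed signal of 6 sensory ganglion genes was 1192 to 1969 on the oculomotor arrays and 1554 to 2494 on the spinal cord arrays. Their defining members Avil, Scn10a and P2rx3 stayed at or below 55 on the oculomotor arrays and 105.1 on the spinal cord arrays, under the filter limit on every array. Of the 2 tested genes on this list, the intermediate filament gene Prph was lower at its brightest probe set, and the substance P precursor gene Tac1 was not called. For 4 Schwann cell genes the sum was 2082 to 2680 on the oculomotor arrays and 5328 to 11325 on the spinal cord arrays, with Pmp22, a peripheral myelin gene also found elsewhere, at -2.09 and the glial factor gene Sox10 at -0.73. The brighter probe set of Egr2, which drives Schwann cell myelination, had 8.5 to 58 on the oculomotor arrays and 56 to 128.6 on the spinal cord arrays. The peripheral myelin gene Ncmap had 58.2 to 138 on the oculomotor arrays and 120.3 to 306.2 on the spinal cord arrays. Both tended to higher signals in spinal cord, with ranges that overlapped, and neither passed the filter. Their part in the Calcb difference was not tested.

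**Figure D2:**
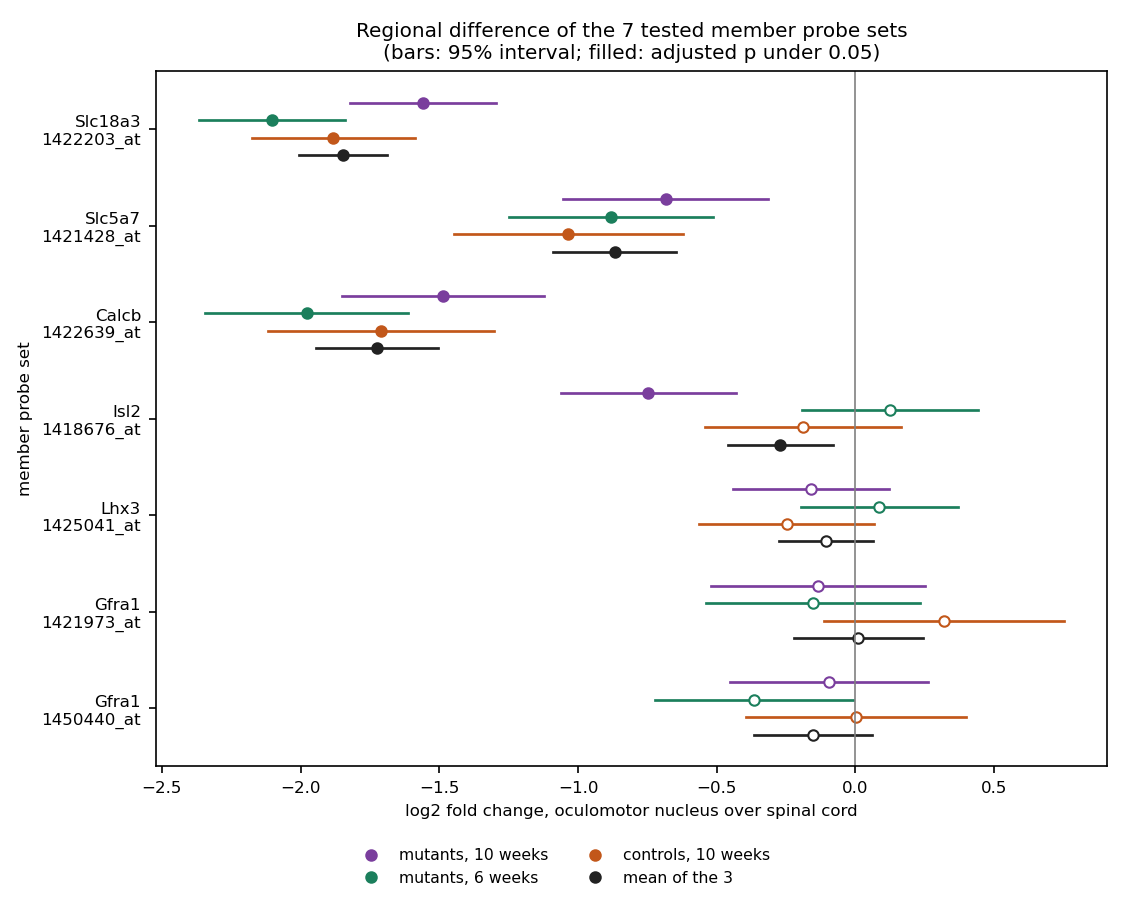
Log2 fold change of the 7 tested probe sets, oculomotor nucleus over spinal cord (horizontal axis), in each condition and in their mean, with 95% intervals. Filled points have an adjusted p under 0.05. Slc18a3 and Calcb lay between -2.10 and -1.49 in every condition, Slc5a7 between -1.04 and -0.68, and Isl2 stood apart from 0 in mutants of 10 weeks.

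Isl2, a LIM homeodomain factor of postmitotic motor neurons, had signals of 235.7, 297.8 and 206.1 in the oculomotor nucleus of mutants of 10 weeks, against 489, 389 and 407.5 in their spinal cord. These groups did not overlap. In mutants of 6 weeks the signals were 306.5, 389.9 and 312.1 in the oculomotor nucleus and 270.4, 333.3 and 313.3 in spinal cord, and in controls 255.8, 329.5 and 288.1 in the oculomotor nucleus and 375.3 and 296.5 in spinal cord. Both of these pairs overlapped. The log2 fold change was -0.75 ± 0.15 (limma adjusted p = 0.00166) in mutants of 10 weeks, 0.12 ± 0.15 (0.595) in mutants of 6 weeks and -0.19 ± 0.17 (0.520) in controls. The mean, -0.27 ± 0.09 (adjusted p = 0.0242), rested on few arrays. It was not called without control spinal cord replicate 2 (-0.22, adjusted p = 0.101), control oculomotor replicate 1 (-0.24, 0.0524) or oculomotor replicate 3 of the mutants of 10 weeks (-0.23, 0.0534).

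Lhx3, a LIM homeodomain factor that acts in motor neurons, in ventral interneurons and in the developing pituitary, was dim. Its brighter probe set had signals of 146.2, 173.1 and 221.6 as the lowest, median and highest of the 9 oculomotor arrays, and 164.5, 191.3 and 210.6 for the 8 spinal cord arrays. Over all arrays the regions overlapped, and the mean log2 fold change was -0.11 ± 0.08 (limma adjusted p = 0.319, 95% interval -0.28 to 0.06). The control arrays did not overlap, with 146.2 to 166.2 in the oculomotor nucleus and 190.2 and 192.5 in spinal cord. Their value was -0.25 ± 0.15 (limma adjusted p = 0.311). Mutants of 10 weeks had -0.16 ± 0.13 and mutants of 6 weeks 0.09 ± 0.13, with ranges that overlapped. The dimmer probe set failed the filter, with at most 105.4 on the oculomotor arrays and 92.5 on the spinal cord arrays. Without a filter its mean regional value was -0.00 ± 0.13. On the 2 oculomotor arrays with the highest prolactin signals (2209 in a mutant of 10 weeks and 3008 in a control), the brighter probe set had 173.1 and 146.2, and the other oculomotor arrays had 150.3 to 221.6.

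Gfra1, the GDNF binding receptor, was not called in any condition. Its brighter probe set had signals of 322.1, 293.8 and 436.4 in the oculomotor nucleus of mutants of 10 weeks and 324.1, 409.3 and 385.9 in their spinal cord. Mutants of 6 weeks had 342, 237.3 and 262.4 in the oculomotor nucleus and 363.4, 335.1 and 398.6 in spinal cord, and controls had 393.8, 524.6 and 328.2 in the oculomotor nucleus and 398.2 and 417.1 in spinal cord. These ranges overlapped in each condition. The log2 fold change was -0.37 ± 0.17 in mutants of 6 weeks (limma adjusted p = 0.127), where the 95% interval of -0.72 to -0.01 lay below 0. The mean over conditions was -0.15 ± 0.10 (adjusted p = 0.253, 95% interval -0.37 to 0.06). The dimmer probe set ran from 131 to 299.1 on the oculomotor arrays and from 161.6 to 267.5 on the spinal cord arrays, with 0.01 ± 0.11 (adjusted p = 0.954). At this probe set the control arrays did not overlap, with 221.5 to 299.1 in the oculomotor nucleus and 198.2 to 214.3 in spinal cord (0.32 ± 0.21, adjusted p = 0.346), while those of both mutant groups did. The 2 Gfra1 probe sets correlated at r = 0.661 over the 17 arrays, and those of Lhx3 at r = 0.365.

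**Figure D3:**
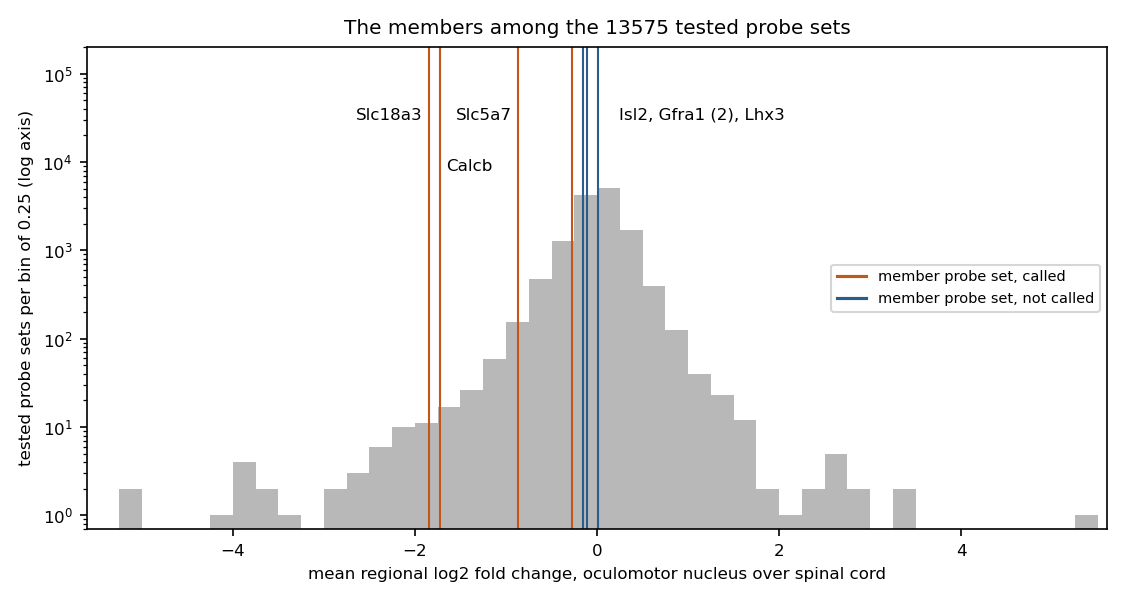
Number of tested probe sets (vertical axis, log scale) by mean log2 fold change, oculomotor nucleus over spinal cord, in bins of 0.25, with the 7 tested probe sets of the 6 genes as lines. Slc18a3 (-1.85), Calcb (-1.73) and Slc5a7 (-0.87) lie in the lower tail, and the other 4 lines lie between -0.27 and 0.01.

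No probe set of the 6 genes was called for genotype or for age in either region, nor for the difference of these effects between regions. Among all tested probe sets, 1.47% were called between mutant and control oculomotor nucleus, 0.0221% between mutant and control spinal cord and 0% for the difference of the genotype effects. For 10 against 6 weeks the shares were 0.0221% in the oculomotor nucleus, 2.76% in spinal cord and 0.368% for the difference. At an unadjusted limma p under 0.05, the number of tested probe sets of the 6 genes was 1, 0 and 1 for genotype and 2, 1 and 2 for age, in the same order.

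Slc18a3 had the highest oculomotor signals in mutants of 10 weeks (317.7 to 388.9), then in controls of 10 weeks (264.3 to 291.6) and the lowest in mutants of 6 weeks (204.1 to 258.5), and these 3 ranges did not overlap. The log2 fold change was 0.31 ± 0.13 for mutants over controls (limma adjusted p = 0.242) and 0.52 ± 0.13 for mutants of 10 over 6 weeks (adjusted p = 0.144), so neither passed. In spinal cord the 3 groups overlapped, with -0.01 ± 0.14 for genotype and -0.02 ± 0.13 for age. The age difference between regions was 0.54 ± 0.18 (adjusted p = 0.156). The summed signal of 2 genes of serotonin neurons, whose raphe nuclei lie near the oculomotor nucleus, had the same order of oculomotor groups. It was 2495 to 3133 in mutants of 10 weeks, 1625 to 1872 in controls and 1091 to 1545 in mutants of 6 weeks. One of them, the serotonin transporter gene Slc6a4, was called higher for genotype (0.82 ± 0.17, adjusted p = 0.0212) and for age (1.26 ± 0.17, adjusted p = 0.0118), and for the age difference between regions (1.27 ± 0.25, adjusted p = 0.0454). The order of the sum rested mainly on Slc6a4, which ran from 710.4 to 2640.1 on the oculomotor arrays. The other gene, Htr1a, ran only from 381 to 508.6 at its brighter probe set and was not called in these 3 comparisons. The microglial receptor gene Cx3cr1 (1.02 ± 0.16) and the myelin gene Cnp (0.52 ± 0.12) were also called higher in the oculomotor nucleus of mutants than of controls. The sums of their lists did not have the order of Slc18a3. For 7 oligodendrocyte genes mutants of 6 weeks were highest (51505.3 to 53164.6), then mutants of 10 weeks (38665.1 to 43184.5) and controls (29677.9 to 32489.5). For 8 microglial genes mutants of 6 weeks (4195.3 to 4630.5) and of 10 weeks (4354.5 to 4472.9) overlapped. The part of these cells in the Slc18a3 values was not tested.

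Isl2 had age values of opposite sign in the 2 regions, neither of which passed the test. In the oculomotor nucleus the 3 mutants of 10 weeks (206.1 to 297.8) lay below the 3 of 6 weeks (306.5 to 389.9), at -0.42 ± 0.15 (limma adjusted p = 0.405). In spinal cord the mutants of 10 weeks (389 to 489) lay above those of 6 weeks (270.4 to 333.3), at 0.45 ± 0.15 (adjusted p = 0.106). For mutants over controls of 10 weeks the oculomotor value was -0.23 ± 0.15 (limma adjusted p = 0.519), with ranges that overlapped. The spinal cord value was 0.33 ± 0.17 (limma adjusted p = 0.449). There the mutants lay above the controls (296.5 and 375.3). The difference between the age effects of the 2 regions was -0.87 ± 0.21 (limma adjusted p = 0.0811). That between the genotype effects was -0.56 ± 0.23 (limma adjusted p = 0.747). Neither passed the adjusted threshold. In the spinal cord comparison of ages, 4 of 6 meningeal and fibroblast genes were called lower at 10 weeks. They were the collagen genes Col1a1, Col1a2 and Col3a1 and the matrix gene Ogn. The sum of the 6 was 3792 to 5293 in mutants of 10 weeks and 7184 to 7656 in mutants of 6 weeks. Of the Schwann cell genes Pmp22 was called lower (-0.79 ± 0.16). Their part in the Isl2 values was not tested.

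Slc5a7 and Calcb kept their order of regions in each condition. For Slc5a7 the genotype value was 0.14 ± 0.18 in the oculomotor nucleus and -0.21 ± 0.20 in spinal cord, with group ranges that overlapped. Calcb differed by 0.27 ± 0.17 in the oculomotor nucleus, where the mutants (127.4 to 153.2) lay above the controls (108.4 to 118.8), and by 0.05 ± 0.19 in spinal cord (adjusted p = 0.497 and 0.953 by limma). For Gfra1, mutants had -0.23 ± 0.18 and -0.22 ± 0.17 in the oculomotor nucleus at its 2 probe sets, and 0.22 ± 0.21 and -0.13 ± 0.19 in spinal cord. At the first of these, the dimmer, the spinal cord mutants (225.6 to 262.5) lay above the controls (198.2 and 214.3). Lhx3 had 0.17 ± 0.13 in the oculomotor nucleus and 0.08 ± 0.15 in spinal cord. The 95% intervals of these genotype values reached at most 0.64 above and 0.62 below 0 in the oculomotor nucleus. For 10 over 6 weeks Calcb had 0.31 ± 0.17 in the oculomotor nucleus and -0.18 ± 0.17 in spinal cord. The difference of these age values was 0.49 ± 0.25 (limma adjusted p = 0.336). In spinal cord the ages did not overlap for Calcb, nor for Lhx3 (0.20 ± 0.13). Slc5a7 had 0.10 ± 0.18 and -0.10 ± 0.18 by age. Gfra1 had 0.31 ± 0.18 and 0.29 ± 0.17 in the oculomotor nucleus, and 0.30 ± 0.18 and 0.02 ± 0.17 in spinal cord.

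**Figure D4:**
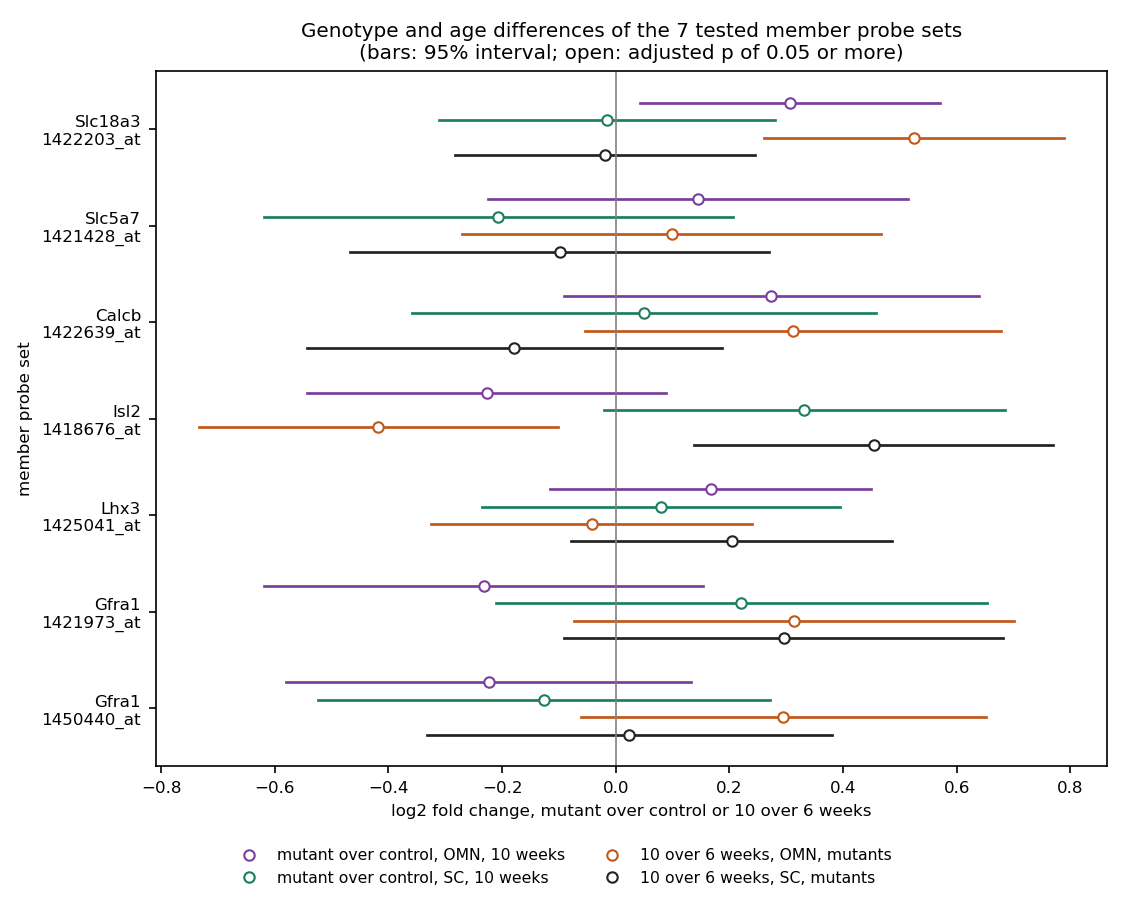
Log2 fold change (horizontal axis) of the 7 tested probe sets for mutants over controls at 10 weeks and for 10 over 6 weeks in mutants, in the oculomotor nucleus (OMN) and in spinal cord (SC), with 95% intervals. All points are open, since no adjusted p was under 0.05. Isl2 lies below 0 in the oculomotor nucleus and above 0 in spinal cord, and Slc18a3 lies at 0.31 and 0.52 in the oculomotor nucleus and near 0 in spinal cord.

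The other genes of acetylcholine handling were split in direction. Of 11 listed genes 9 were on the array under their own symbol, 7 were tested and 5 of these are not among the 6 genes described. In the mean of the 3 conditions 2 of the 5 were lower in the oculomotor nucleus and 2 higher, against 17.7% and 20% of all tested probe sets. The choline transporter-like gene Slc44a1 had -0.77 ± 0.05, and Prima1, which anchors acetylcholinesterase in the membrane, had -0.57 ± 0.08. The choline kinase genes Chka and Chkb had 0.39 ± 0.09 and 0.31 ± 0.07. Ache, the enzyme that breaks acetylcholine down, had 0.24 ± 0.11 (limma adjusted p = 0.0897) and was not called. The median of the 5 was 0.24, and that of all tested probe sets was 0.02.

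Of 17 acetylcholine receptor genes on the array 3 were tested, and all 3 were higher in the oculomotor nucleus, against 20% of all tested probe sets. They encode the neuronal nicotinic subunits Chrna6 (1.68 ± 0.14), Chrna4 (0.64 ± 0.08) and Chrnb2 (0.35 ± 0.07), which dopamine neurons are known to use. Chrna6 lay under the filter limit on every spinal cord array (50.2 to 115.6) and passed through its oculomotor signals (233.9 to 382.9). Its direction was therefore not independent of the filter. Chrna4 and Chrnb2 lay above the limit on every array of both regions. Markers of dopamine neurons moved with these receptor genes, with all 5 tested genes of that list called higher, among them the dopamine transporter gene Slc6a3 at 3.31 ± 0.10. The filter limits this count too. Foxa2 of that list lay under the limit on every spinal cord array (69.9 to 131.6), and the spinal cord median of Slc6a3 (120.3) was under it. Those of Th (182.3) and Ddc (370.6) were above it. The part of dopamine neurons in the receptor difference was not tested.

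Among motor neuron transcription factors, 21 of 23 listed genes were on the array and 9 were tested. Of the 7 that are not described above, Foxp1, which sets limb motor columns, had 0.44 ± 0.07 (3 of its 5 tested probe sets were called), and the LIM cofactor gene Ldb1 had 0.26 ± 0.09, both higher in the oculomotor nucleus. Aldh1a2, the retinoic acid enzyme of limb-level motor neurons and meninges, had -1.15 ± 0.12, and Olig2, which marks motor neuron progenitors and oligodendrocyte lineage cells, had -0.24 ± 0.09. In the mean of the 3 conditions all 6 meningeal genes and all 7 tested oligodendrocyte genes were also called lower. The oligodendrocyte sum was not lower in mutants of 6 weeks. The part of these cells in these values was not tested. The median of the 7 was 0.18.

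Of the GDNF system, 12 of 13 listed genes were on the array, and 8 other than Gfra1 were tested. The adhesion receptor gene Ncam1 (0.98 ± 0.06) and the heparan sulfate carrier gene Sdc3 (0.29 ± 0.11) were higher, and the sorting receptor gene Sorl1 (-0.34 ± 0.09) was lower. Ret, the signalling partner of Gfra1, had -0.01 ± 0.08 (limma adjusted p = 0.971). The other 4 were not called, and the median was 0.05. Probe sets of 1 gene differed here: the 3 tested for Ncam1 ran from -0.07 to 0.98 with 2 called higher, those of Sdc3 from -0.09 to 0.29 with 1 called, and 1 of the 2 for the receptor gene Gfra2 was called higher at 0.79 while its brightest had 0.04. In the CGRP system, 4 genes other than Calcb were tested: the receptor partner genes Ramp1 (-0.61 ± 0.07) and Ramp2 (-0.21 ± 0.08) were lower, and Ramp3 had 0.38 ± 0.15 (adjusted p = 0.0558).

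Of 12 tested genes on a list of other motor neuron markers, 9 were lower in the oculomotor nucleus and 1 was higher, against 17.7% and 20% of all tested probe sets, with a median of -0.67. Genes of other cells were called lower in the same contrast too, and their part in this count was not tested. The counts were 7 of 7 tested for oligodendrocytes, 5 of 6 for microglia, 3 of 6 for astrocytes (1 was higher) and 6 of 6 for meningeal cells. Of the meningeal genes, Col1a1 lay under the filter limit on every oculomotor array (36.3 to 122.7 at its brightest probe set). In mutants of 6 weeks the oligodendrocyte sum was not lower, with 51505.3 to 53164.6 in the oculomotor nucleus and 46722.4 to 51172.1 in spinal cord. Of 8 tested probe sets of the myelin gene Mbp, 4 were called lower in the mean. Prph had -2.66 ± 0.12, but its other tested probe set overlapped between regions, with 126.1 to 215.3 on the oculomotor arrays and 123.7 to 205.1 on the spinal cord arrays. Chodl, a gene of fast motor neurons, had -2.40 ± 0.12, and the neurofilament gene Nefh had -1.24 ± 0.06. Anxa2, a membrane-binding protein gene, had -1.16 ± 0.07. Sema3e, an axon guidance gene of motor neuron subsets, was the 1 that was higher (1.35 ± 0.12). Prph, Rbfox3 and Ret stand on more than 1 list. In the 6 genotype and age comparisons, Chkb (0.62, adjusted p = 0.0118) and the neurofilament gene Nefl (0.34, adjusted p = 0.0445) were the called genes of the 6 lists of related genes (acetylcholine handling and receptors, transcription factors, GDNF, CGRP and motor neuron markers), both higher at 10 than at 6 weeks in the spinal cord of mutants.

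**Figure D5:**
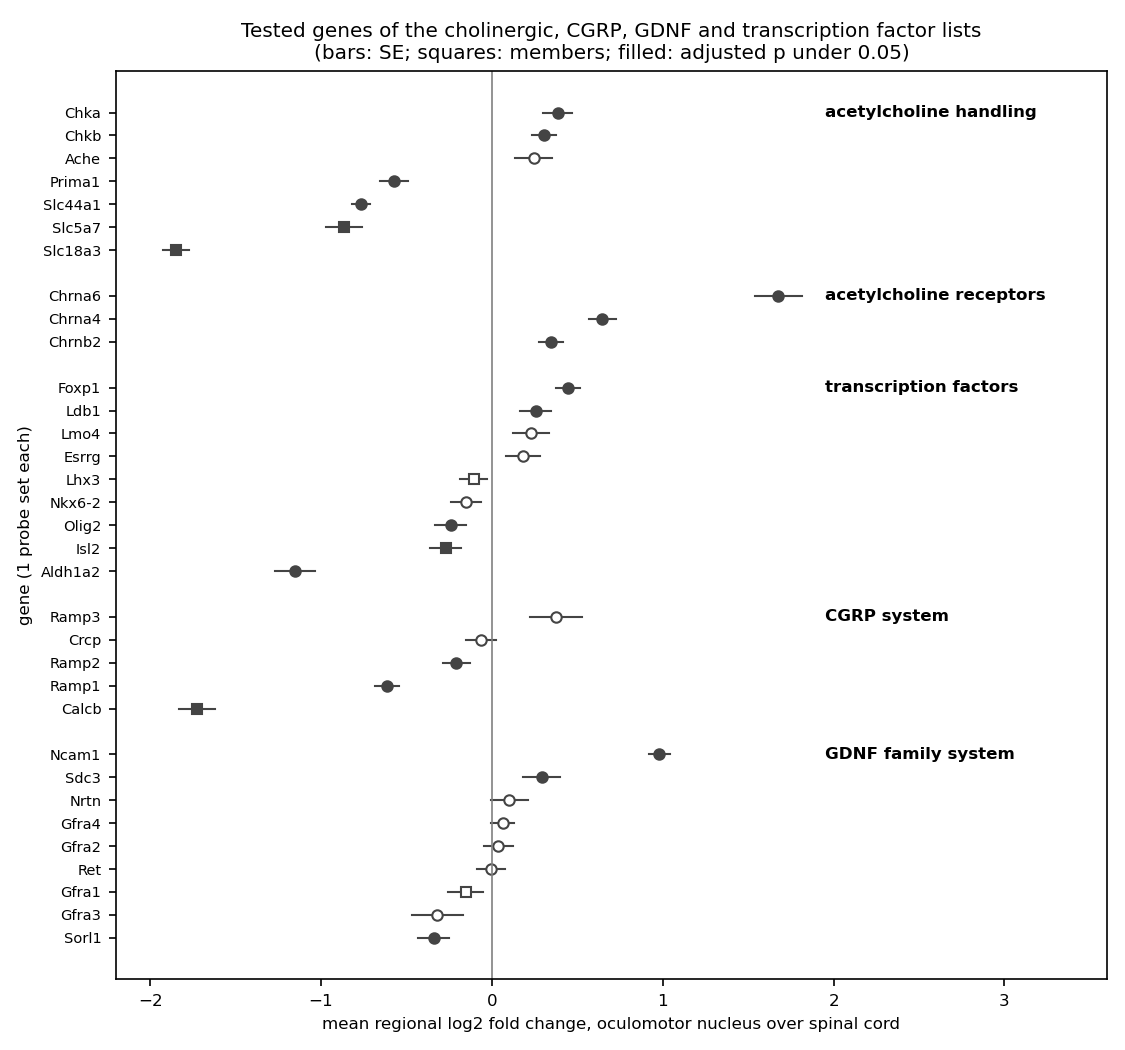
Mean log2 fold change, oculomotor nucleus over spinal cord (horizontal axis), of each tested gene on the lists for acetylcholine handling, acetylcholine receptors, transcription factors, the CGRP system and the GDNF system, by its brightest probe set, with SE bars. Squares are the 6 genes described, and filled symbols have an adjusted p under 0.05. Slc18a3 (-1.85) and Calcb (-1.73) are the lowest of these genes, and Chrna6 (1.68) is the highest.

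Correlations over the 17 arrays carry the difference between the regions. The genes whose log2 signals correlated best with Slc18a3 were Lbx1, a factor of dorsal spinal interneurons (r = 0.982), A2m (0.977) and Lgals1 (0.976). For Calcb they were Aplnr (0.980), Lgals1 (0.980) and the position gene Hoxb2 (0.979), and for Slc5a7 they were Sh3glb1 (0.946), Msn (0.941) and Slc41a1 (0.938). The best match was Niban2 (0.854) for Isl2, Bcar1 (0.832) for Lhx3 and Lin7c (0.870) for Gfra1. All points share the 2 tissues, and these are the highest among all tested genes.

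Slc18a3 and Slc5a7 correlated at r = 0.925 over all 17 arrays. Within regions the values were 0.102 over the 9 oculomotor arrays and 0.814 over the 8 spinal cord arrays. Slc18a3 and Calcb had 0.967 over all arrays, 0.369 within the oculomotor nucleus and 0.385 within spinal cord. Arrays of a region share tissue and dissection, and Slc5a7 was near the filter limit in the oculomotor nucleus. Once each group mean was subtracted, the best match of Slc18a3 was Enoph1 (r = 0.894) and that of Slc5a7 was Tm9sf3 (0.929).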

How the data were processed

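Per the labels and the series' design text, biotin-labelled cRNA from total RNA was hybridised to Affymetrix Mouse Expression Set 430A arrays, and the authors computed intensity signals with Affymetrix Microarray Suite 5.0. The deposited intensity values are linear, 1 per probe set and array. The authors' present and absent calls were not used here.

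Of 22690 probe sets 64 controls were removed. Symbols came from the platform annotation and were updated through gene identifiers: 20380 probe sets had 1 symbol, 691 several and 1555 none. An offset of 25 was added, log2 was taken, and the 40% with the lowest mean were left out, which left 13575. Group means were fitted to the 17 arrays with limma 3.58.1 in R 4.3.3 (eBayes with a trend), with 10 contrasts, each adjusted by the Benjamini-Hochberg method. The steps were tested on simulated data.

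The 6 genes and the lists of related and marker genes were chosen with earlier results of these data known. On each list a gene stands by its brightest probe set. Of the lists of related genes, up to 4 genes with the smallest p in the mean regional contrast were named, with each one called for genotype or age; marker genes are given beside results they move with; likeness names the best-correlated tested genes. Alternatives covered the offset, normalization, filter, trend, arrays in the fit, a replicate block and the call rule.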

Additional observations from a re-analysis of the deposited data

Results flagged for a closer look

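Isl2 signals were ordered oppositely by age in the mutants of the 2 regions: each array of 10 weeks lay below each of 6 weeks in the oculomotor nucleus and above each of them in spinal cord. The age effect in the oculomotor nucleus minus that in spinal cord was -0.87 ± 0.21 on the log2 scale, with a limma adjusted p of 0.0811 over the 13575 tested probe sets, so the test of the difference did not pass. Both ages are of mutants and no controls of 6 weeks were measured, so ordinary ageing and an age change particular to mutants cannot be told apart. At 10 weeks the spinal cord arrays of controls (296.5 and 375.3) lay below those of mutants (389 to 489). In the oculomotor nucleus controls (255.8 to 329.5) and mutants (206.1 to 297.8) overlapped. Isl2 was called for genotype in neither region. Ages without overlap were not particular to Isl2. In spinal cord they also stood apart for the brighter Lhx3 probe set (192.4 to 210.6 at 10 weeks, 164.5 to 183.3 at 6 weeks). There Calcb had 414.9 to 476.2 at 10 weeks and 476.3 to 559.2 at 6 weeks. The share of all probe sets without such overlap is not given here. In the spinal cord comparison of ages, 4 of 6 meningeal genes and the Schwann cell gene Pmp22 were called lower at 10 weeks. The part of these cells in the Isl2 values was not tested.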

How the results depend on the processing

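Slc18a3 and Calcb kept their direction and their calls in the 4 regional comparisons under every alternative in which they were tested, and no value of a called result reversed. The mean difference of Slc18a3 ran from -1.94 to -1.63 and that of Calcb from -1.92 to -1.33. A filter of 60% tested fewer probe sets of the 6 genes and left 1 called, that of Slc18a3, in each regional comparison. In mutants of 10 weeks 2 were called with all 18 arrays, 2 with a change of at least 2-fold required and 2 where all pairs of arrays had to differ in the same direction by over 2-fold in the mean; in the mean of the conditions the 2-fold rule left 2. With 1 array left out in turn, the count was 3 to 4 in mutants of 10 weeks, 3 to 3 in mutants of 6 weeks, 3 to 3 in controls, 3 to 4 in the mean and 0 to 0 for genotype and age. With all 18 arrays Slc5a7 was not called in mutants of 10 weeks (adjusted p = 0.924), mutants of 6 weeks (0.687) or controls (-1.97, 0.0623), nor Isl2 in mutants of 10 weeks (0.218) or in the mean (-0.15, 0.529). When both arrays rich in pituitary hormone signal were dropped, Slc5a7 had -0.51 (limma adjusted p = 0.0718) in mutants of 10 weeks. The Isl2 age difference between regions had adjusted p of 0.0586 to 1.00 over its alternatives.

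With the replicate number as a block, 4 probe sets of the 6 genes were called in mutants of 10 weeks, 3 in mutants of 6 weeks, 3 in controls, 4 in the mean and 0 in each genotype and age comparison, as without it. The labels do not say whether same-numbered arrays share an animal or a batch. Of 40 pairs of same-numbered arrays 6 correlated above 0.1 in their deviations from group means (-0.102 to 0.130). With 2 to 3 arrays a group, these correlations cannot decide it. With 2 to 3 arrays a group and signals near the filter limit for Slc5a7, Lhx3 and oculomotor Calcb, small differences of these genes were not detectable.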
